A study of Caenorhabditis elegans with 2 samples.

Results

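Binding of the nuclear hormone receptor NHR-43 was examined at 39 genes of the Caenorhabditis elegans cell cycle and DNA replication machinery, of 19973 nuclear protein-coding genes in all. The genes were listed by name and found by symbol in the Ensembl WBcel235 annotation, where all 39 were present. Of these, 22 act in DNA replication (13 in origin licensing, 9 at the fork or in nucleotide supply) and 17 in cell cycle control (11 cyclins, cyclin-dependent kinases, CDC25 phosphatases and an inhibitor, 3 Rb and E2F genes, 3 ubiquitin ligase genes). Chromatin immunoprecipitation and sequencing (ChIP-seq) with an anti-GFP antibody was carried out on whole hermaphrodite L3 larvae of strain OP477, genotype unc-119(tm4063) III; wgIs477, taken 36.5 h after synchronisation as starved L1 larvae. The integrated transgene wgIs477 supplies a copy of NHR-43 tagged at its C terminus with GFP and FLAG, and the labels' antibody entry names the target nhr-43. Both samples belong to 1 group, as biological replicates 1 and 2, which leaves no contrast between conditions, and the control experiment that the labels list was not analysed here. All peaks come from 1 transgenic strain and from all tissues of the animal together, so the cells in which a site was occupied cannot be told apart.

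A gene was counted as having a peak when a summit lay from 1000 bp upstream to 200 bp downstream of its annotated 5′ end. Peaks of the thresholded list, 3889 in all, carry a signal value that the authors assigned from the pooled replicates, and a rank of 1 is the highest signal. Relaxed lists, made as input for a reproducibility analysis and reaching far weaker peaks, hold 30000 peaks for the pool, 29315 for replicate 1 and 30000 for replicate 2. All 3889 thresholded peaks are also in the relaxed pooled list, with the same signals at the members, so these lists share a scale. The scale of each replicate list is its own, so signals were not compared between replicates or between a replicate and the pool. The read depth of either library is unknown.

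DNA replication starts with licensing, in which the origin recognition complex, CDC-6 and CDT-1 load the MCM helicase onto DNA, and proceeds at forks with the sliding clamp PCNA, its loader RFC and the single-strand binding protein RPA. Entry into S phase is set by cyclin-dependent kinases. In animals, Rb family proteins hold back E2F and DP transcription factors at the promoters of many of these genes until cyclin D and cyclin E kinases act, and ubiquitin ligases remove cyclins and inhibitors. In the worm, lin-35 encodes the Rb family protein, and cki-1, cyd-1 and lin-35 are known for control of G1 progression in larval blast cells such as those that form the vulva.

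The summit sequences of 4 member peaks are shown. Those of mcm-4, cdc-6, rpa-2, cye-1 and lin-35 are not. The printed set therefore leaves out the Rb family gene and the member peak with the highest signal, that of rpa-2. Printed are the sequences of the clamp gene pcn-1, the clamp loader gene rfc-4 and the F-box gene lin-23. The other printed sequence is that of the divergent pair orc-5 and cyb-1, which shares a peak. Each run is 151 bases of the plus strand, with the pooled summit at the middle base, read from the RefSeq genome of WBcel235. The windows are IV:4049682-4049832 for pcn-1, III:6971998-6972148 for rfc-4, IV:10734665-10734815 for orc-5 and cyb-1, and II:6370266-6370416 for lin-23. Capitals mark matches to the short motifs described with the motif counts, on either strand.
pcn-1: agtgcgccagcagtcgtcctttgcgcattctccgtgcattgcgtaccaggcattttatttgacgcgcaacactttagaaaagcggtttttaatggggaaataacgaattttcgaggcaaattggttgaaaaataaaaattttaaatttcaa
rfc-4: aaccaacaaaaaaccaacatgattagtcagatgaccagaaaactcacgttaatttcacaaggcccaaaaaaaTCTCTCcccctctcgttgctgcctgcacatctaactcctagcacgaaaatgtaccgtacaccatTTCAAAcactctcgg
orc-5 and cyb-1: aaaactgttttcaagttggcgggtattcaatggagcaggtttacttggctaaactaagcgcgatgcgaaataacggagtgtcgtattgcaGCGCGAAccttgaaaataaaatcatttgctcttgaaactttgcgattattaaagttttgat
lin-23: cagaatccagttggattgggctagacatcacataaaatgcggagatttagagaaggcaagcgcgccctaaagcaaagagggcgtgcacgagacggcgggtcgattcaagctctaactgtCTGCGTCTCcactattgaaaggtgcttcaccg
The pcn-1 window holds none of the motifs searched. In rfc-4 the capitals are a GAGA-type TCTCTC and a TTCAAA, the reverse complement of the cell cycle homology (CHR) type TTTGAA. In the shared window of orc-5 and cyb-1 they are GCGCGAA, the reverse complement of the E2F-type TTCGCGC. In lin-23 they are CTGCGTCTC, a word counted here as EOR-1-type.

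A thresholded summit lay in the window of 10 of the 39 members (25.6%), beside 10.1% of all protein-coding genes. The 10 genes were mcm-4, cdc-6 and orc-5 of origin licensing, pcn-1, rfc-4 and rpa-2 of the fork, the cyclin genes cye-1 and cyb-1, the Rb family gene lin-35, and lin-23. They rest on 9 peaks, since orc-5 and cyb-1 share one. All 9 summits lay between protein-coding genes, upstream of the member. Their distances to the members' 5′ ends ran from 152 to 962 bp, with a median of 298 bp, counting the shared summit once for each of its genes. For all 2010 genes with a thresholded summit in their window, the median was 248 bp upstream. The member peaks had signals of 63.64 to 476.4 with a median of 213.2, and the 1645 thresholded peaks in any protein-coding window had 61.42 to 2066 with a median of 119.7. Genes and peaks are not replicates, and the members were chosen with results of these data known, so these shares are given without a test.

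**Figure D1:**
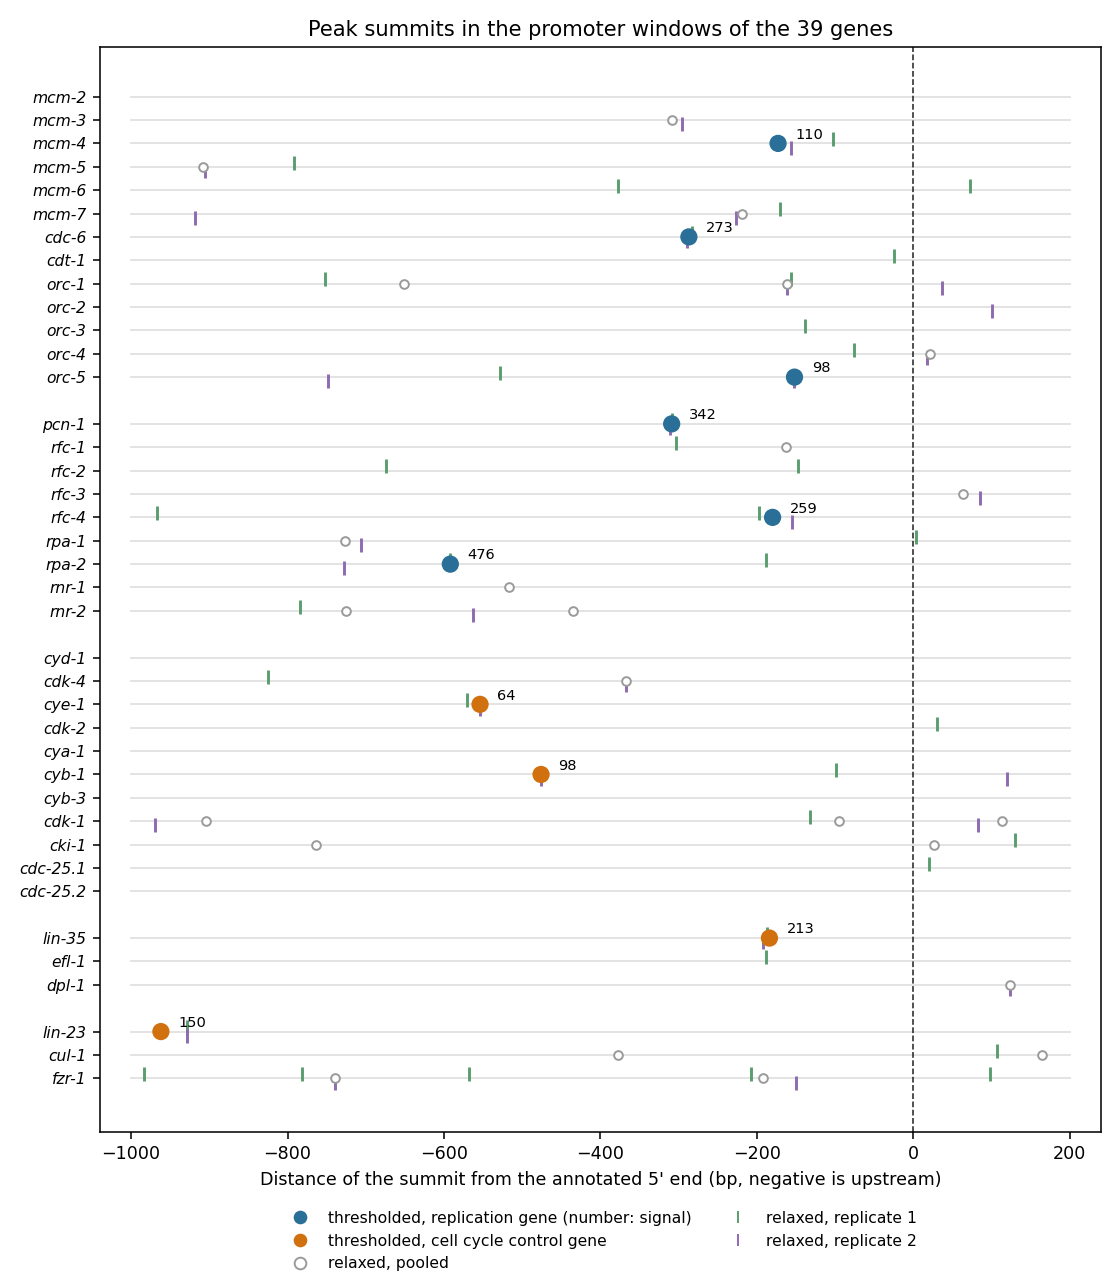
Summits in the promoter window of each of the 39 members (rows), by distance from the annotated 5′ end (x axis, bp, negative values upstream). Filled circles are thresholded summits with their pooled signal beside them (blue for replication, orange for cell cycle control), open circles relaxed pooled summits, and green and purple ticks relaxed summits of replicates 1 and 2. All filled circles lie upstream of the 5′ end, from 152 bp at orc-5 to 962 bp at lin-23, and mcm-2, cyd-1, cya-1, cyb-3 and cdc-25.2 have no mark.

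In origin licensing, 3 of 13 genes (23.1%) had a thresholded summit. The strongest was at cdc-6 (WBGene00000382), whose product helps to load the helicase, with a peak at I:4270456-4270654 and a pooled signal of 273.1 (rank 470). Its signal was 82.39 (rank 581) in replicate 1 and 135.9 (rank 600) in replicate 2. Both replicate summits lay within 4 bp of the pooled one, which was 287 bp upstream of cdc-6 but only 92 bp upstream of the divergent gene acin-1. The cdc-6 peak therefore counts for both genes, and acin-1 has the nearer 5′ end.

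At mcm-4 (WBGene00003156), the one helicase subunit gene of 6 with a thresholded summit, the peak lay at I:2321963-2322062, 173 bp upstream of the 5′ end. Its pooled signal was 109.7 (rank 1971), with 35.68 (rank 1721) in replicate 1 and 62.03 (rank 1968) in replicate 2. The peak was 100 bp wide, the narrowest among the members, and the replicate 1 summit lay 70 bp from the pooled summit, against 17 bp in replicate 2. No other protein-coding gene's window holds it. One end of the peak reached into the 3′ end of the upstream gene Y39G10AR.32, which lies on the same strand.

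The third licensing gene, orc-5 (WBGene00013857), encodes an origin recognition complex subunit and stands head to head with cyb-1 (WBGene00000865), which encodes a B-type mitotic cyclin. Their peak at IV:10734578-10734901 had a pooled signal of 97.92 (rank 2248) and lay 152 bp upstream of orc-5 and 476 bp upstream of cyb-1. Replicate 2 had a summit at the same base with a signal of 74.01 (rank 1568), and a weaker one (17.98) 120 bp inside cyb-1. Replicate 1 had its nearest summit 377 bp away, with a signal of 10.89 (rank 7419), at 529 bp upstream of orc-5 and 99 bp upstream of cyb-1. The highest summits of the replicates thus lay toward opposite ends of the shared promoter, and the thresholded peak is at that of replicate 2.

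The other 10 licensing genes had no thresholded summit. Among them the origin recognition genes orc-4 and orc-1 came closest, with relaxed pooled peaks of 53.98 and 41.44. The orc-4 peak was the highest among members outside the threshold, and the lowest signal in the thresholded list is 61.42. The helicase genes mcm-7, mcm-3 and mcm-5 had relaxed pooled peaks of 24.26, 13.44 and 10.03, and mcm-6 had a relaxed summit in replicate 1 alone (signal 7.172). For mcm-2 no relaxed list had a summit in the window. The loading factor gene cdt-1 had a peak in replicate 1 alone and is described with the replicates. For the origin recognition genes orc-2 and orc-3 the pooled list had no summit, while replicate 2 had one at orc-2 (13.17) and replicate 1 one at orc-3 (7.081).

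At the fork, 3 of 9 genes (33.3%) had a thresholded summit, and they include the pair with the highest signals of all members. At rpa-2 (WBGene00019767), a subunit of the single-strand binding protein, the peak at I:4769515-4769820 had a pooled signal of 476.4 (rank 158), 592 bp upstream of the 5′ end. Replicate 1 had a summit at the same base with 143.7 (rank 258). Replicate 2 had its highest summit in the window 136 bp away, 728 bp upstream of the gene, with 254.0 (rank 187). The replicate 2 peak overlaps the pooled one, with its summit near its own edge, so both replicates had a strong peak here with summits farther apart than the 100 bp used to match them.

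The peak at pcn-1 (WBGene00003955), which encodes the sliding clamp PCNA, lay at IV:4049642-4049861, 309 bp upstream of the 5′ end. It belongs to no other protein-coding gene's window. Its pooled signal was 342.4 (rank 307), with 131.2 (rank 296) in replicate 1 and 202.5 (rank 284) in replicate 2. The replicate summits lay 1 and 2 bp from the pooled one, and the gene ranked near the same place in each list. At rfc-4 (WBGene00004340), a clamp loader subunit, the peak at III:6972001-6972205 had a pooled signal of 258.7 (rank 525), with 74.56 (rank 671) in replicate 1 and 169.2 (rank 404) in replicate 2. That summit lay 180 bp upstream of rfc-4 and 361 bp upstream of its divergent neighbour eef-1A.1, a translation elongation factor gene, and it overlaps the annotated microRNA cel-mir-5549. The rfc-4 summits of the replicates lay 17 and 25 bp from the pooled one.

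The remaining fork genes had weak peaks or none. The clamp loader genes rfc-1 and rfc-3 had relaxed pooled peaks of 32.52 and 17.84, and the ribonucleotide reductase genes rnr-2 (small subunit) and rnr-1 (large subunit) had 23.71 and 12.2. The largest RPA subunit gene, rpa-1, had 10.42, and rfc-2 had no relaxed pooled summit. Among the listed genes, a single gene of each complex had a thresholded summit in the window used here. These were rfc-4 of 4 clamp loader genes, rpa-2 of 2 RPA genes, orc-5 of 5 origin recognition genes and mcm-4 of 6 helicase genes. The orc-5 peak is shared with cyb-1. Over all protein-coding genes the share was 10.1%, and these small groups, which need not hold every subunit, were not tested. In that window, the relaxed pooled signals of the other listed genes of these complexes were all at or below 53.98. The window from 2000 bp upstream to 500 bp downstream also reached thresholded summits at mcm-7, orc-2 and rfc-3 (all genes: 13.7%). The single gene per complex therefore depends on the window.

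**Figure D2:**
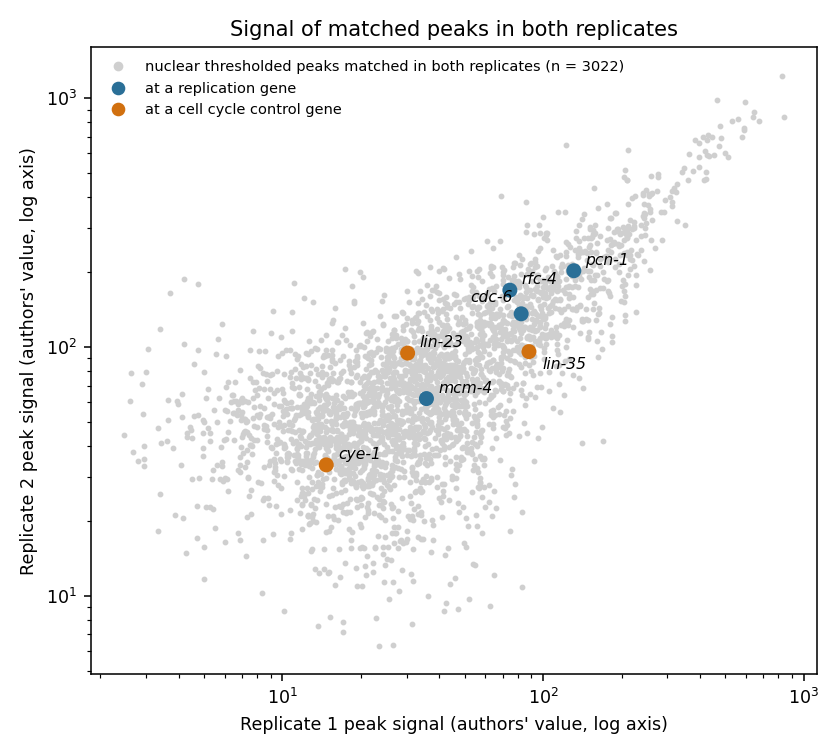
Signal in replicate 1 (x axis) and replicate 2 (y axis), authors' values on log axes, of the 3022 nuclear thresholded peaks with a relaxed summit of each replicate within 100 bp (grey), with the 7 member peaks among them named (blue for replication, orange for cell cycle control). The member peaks lie within the cloud of all peaks, from cye-1 (14.72 and 33.58) to pcn-1 (131.2 and 202.5); rpa-2 and the shared peak of orc-5 and cyb-1 are not matched in both replicates and are not drawn.

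Among the 11 cyclin and kinase genes, 2 (18.2%) had a thresholded summit, both of them cyclins. That of cyb-1 is the peak shared with orc-5. At cye-1 (WBGene00000871), which encodes cyclin E, the peak at I:6780083-6780406 had a pooled signal of 63.64 (rank 3712), just inside the threshold, with 14.72 (rank 4942) in replicate 1 and 33.58 (rank 4263) in replicate 2. It was the weakest member peak in the pool and stood outside the 3889 highest peaks of both replicates. Its summit lay 554 bp upstream of cye-1 and 94 bp upstream of the divergent gene pqn-21, which is the nearer one.

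A stronger thresholded peak lay inside cye-1, outside the promoter window. This intron peak, at I:6781714-6781918, had its summit 1053 bp into the gene and a pooled signal of 226.7 (rank 667). It was among the 3889 highest peaks of both replicates. Of the pair, the promoter peak of cye-1 thus had the lower signal. Counting the 5′ ends of every annotated transcript of each gene left the number of members with a peak at 10.

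For the other cyclin and kinase genes the highest relaxed pooled signals were 37.96 at cdk-1, the mitotic kinase gene, and 31.93 at cdk-4, the partner of cyclin D. The kinase inhibitor gene cki-1 had 23.65. The genes for cyclin D (cyd-1), cyclin A (cya-1), the B-type cyclin cyb-3 and the phosphatase cdc-25.2 had no summit in the window in any list. The kinase gene cdk-2 and the phosphatase gene cdc-25.1 had a relaxed summit in replicate 1 alone, with signals of 2.909 and 5.527.

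Of the Rb and E2F genes, lin-35 (WBGene00003020) had a thresholded peak at I:5807465-5807643, while efl-1 (E2F) and dpl-1 (DP) had none. The lin-35 peak had a pooled signal of 213.2 (rank 733), with 88.26 (rank 527) in replicate 1 and 95.8 (rank 1077) in replicate 2. Its summit lay 184 bp upstream of lin-35 and 234 bp upstream of the divergent gene vps-51, and both replicate summits lay within 8 bp of it. A weaker thresholded peak lay in a lin-35 intron, 506 bp into the gene (signal 68.12, rank 3408). For dpl-1 the highest relaxed pooled peak had a signal of 16.03.

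Among the ubiquitin ligase genes, lin-23 (WBGene00003009), which encodes an F-box protein of the SCF ligase, had a thresholded peak at II:6370305-6370435. Its pooled signal was 150.0 (rank 1287), with 30.21 (rank 2092) in replicate 1 and 94.5 (rank 1100) in replicate 2. At 962 bp upstream it lay the farthest from a 5′ end, near the edge of the window, and in no other protein-coding gene's window. The lincRNA gene linc-27 lay 464 bp from the summit. The cullin gene cul-1 and the anaphase-promoting complex activator gene fzr-1 had relaxed pooled peaks of 22.71 and 42.59.

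Set side by side, 6 of 22 replication genes (27.3%) and 4 of 17 cell cycle control genes (23.5%) had a thresholded summit. The difference was not tested, and the shared peak of orc-5 and cyb-1 counts on both sides. Over all protein-coding genes the share was 10.1%. With the relaxed pooled list the shares were 16 of 22 (72.7%) and 10 of 17 (58.8%), and 26 of 39 (66.7%) for all members, beside 34.8% of all protein-coding genes. A summit in at least 1 of the relaxed lists was found for 21 of the replication genes and 13 of the control genes. The 5 members without one were mcm-2, cyd-1, cya-1, cyb-3 and cdc-25.2, of which only mcm-2 is a replication gene. The share of all protein-coding genes with a summit in at least 1 relaxed list was not computed. These last counts therefore have no background beside them and are not read further.

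**Figure D3:**
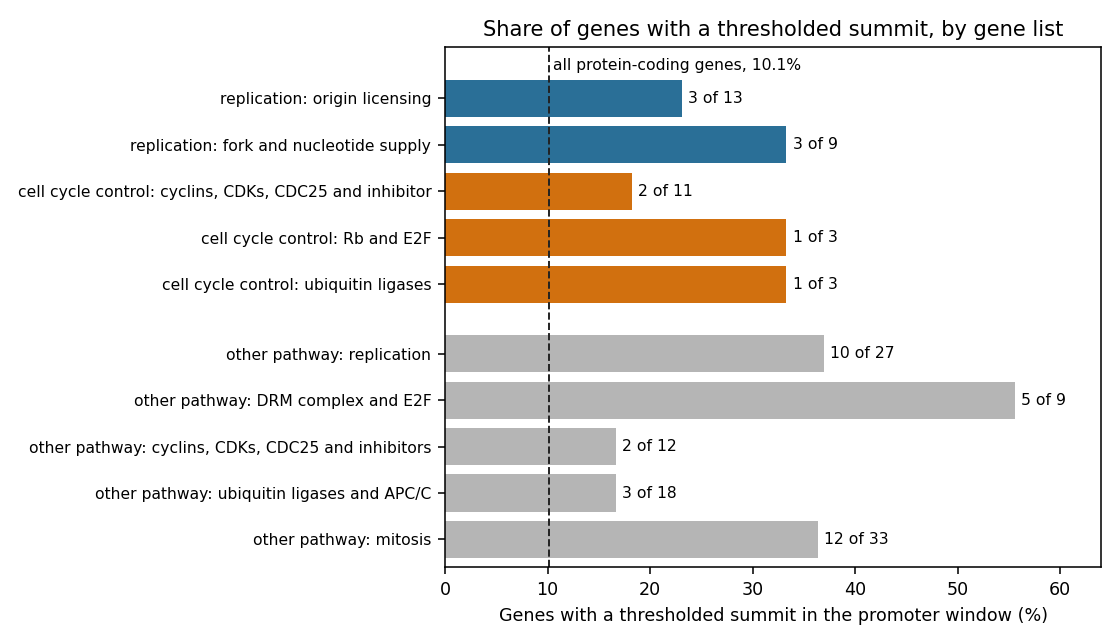
Percent of genes with a thresholded summit in the promoter window (x axis, percent) for each gene list, as bars from 0 with the counts beside them (blue for replication members, orange for cell cycle control members, grey for other genes of the pathway), and a dashed line at 10.1% for all protein-coding genes. Every bar ends beyond the line, from 16.7% for the other cyclin and other ubiquitin ligase genes to 55.6% for the DRM and E2F genes, and most lists are short.

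Each replicate was also ranked alone, taking its 3889 highest peaks. In replicate 1 these peaks reached 10 members (25.6%), beside 9.81% of all protein-coding genes. In replicate 2 they reached 9 members (23.1%), beside 9.52%. The genes mcm-4, cdc-6, pcn-1, rfc-4, rpa-2, lin-35 and lin-23, 7 in all, were reached in both replicates and in the thresholded list. The pair orc-5 and cyb-1 was reached in replicate 2 and not in replicate 1, and cye-1 in neither. Requiring a relaxed summit of each replicate within 100 bp of the thresholded one left 7 members (17.9%), beside 8.67% of all protein-coding genes, and the genes lost were orc-5, cyb-1 and rpa-2.

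Replicate 1 had high peaks at 3 members where replicate 2 had no summit in the window. At the E2F gene efl-1 the replicate 1 peak (V:16965726-16966001) had a signal of 52.42 (rank 1081), 189 bp upstream of the 5′ end, and the nearest replicate 2 summit was 942 bp away with 12.2 (rank 16335). At the licensing gene cdt-1 the peak (I:3227991-3228266) had 35.97 (rank 1700), 25 bp upstream, and the nearest replicate 2 summit was 18065 bp away. At the inhibitor gene cki-1 the peak (II:7811232-7811507) had 18.42 (rank 3702) and fell in a coding exon 130 bp downstream of the 5′ end, with the nearest replicate 2 summit at 764 bp. The efl-1 and cdt-1 peaks ranked above the mcm-4 peak of the same replicate (rank 1721), and the pooled list had no summit in either window. At cki-1 the pooled list had one 103 bp from the replicate 1 summit, with 23.65. Across the genome, 192 of the 1959 genes reached by replicate 1's highest peaks (9.8%) had no relaxed replicate 2 summit in the window. In the opposite direction this held for 94 of 1901 genes (4.94%), none of them a member.

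**Figure D4:**
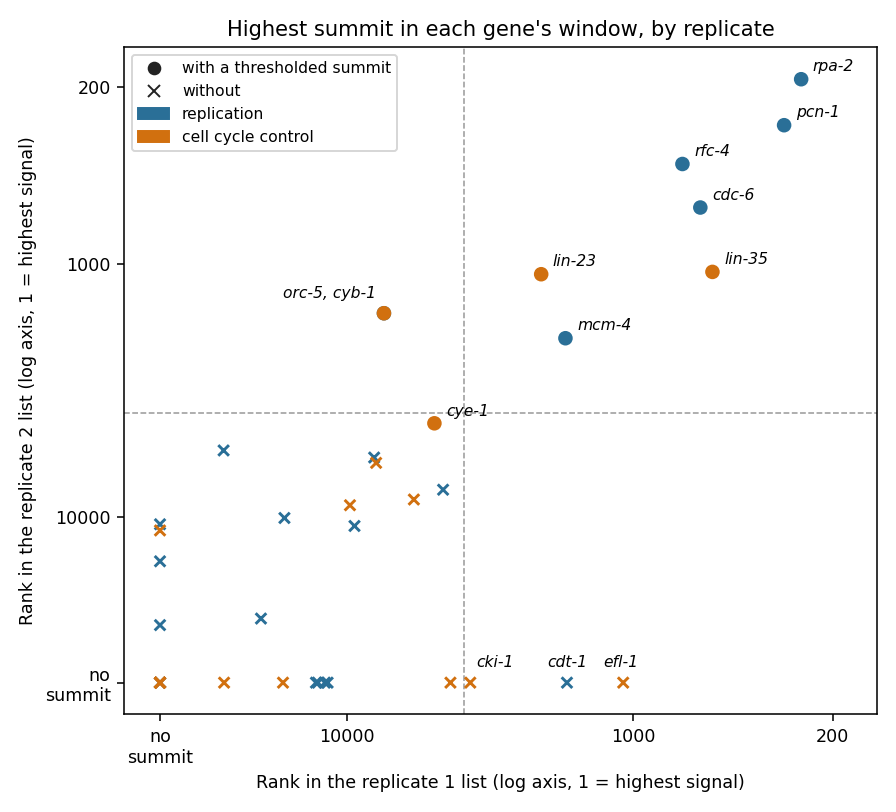
Rank of the highest summit in each member's window in replicate 1 (x axis) and replicate 2 (y axis), both on log axes with rank 1 as the highest signal and dashed lines at rank 3889; filled points have a thresholded summit, crosses do not, and the point of orc-5 and cyb-1 stands for both genes. The 7 genes reached in both replicates lie at the upper right, while cki-1, cdt-1 and efl-1 lie at the lower edge because replicate 2 had no summit in their windows.

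The order of the members by signal was the same at its top in each list, with rpa-2 first and pcn-1 second. Below them the order was not stable: lin-35 ranked above cdc-6 and rfc-4 in replicate 1 and below both in the pool and replicate 2, and mcm-4 ranked above lin-23 in replicate 1 and below it in the others. The relative heights of cdc-6, rfc-4 and lin-35, and of mcm-4 and lin-23, therefore could not be separated from the difference between replicates. The replicates supported the member peaks at shares of 88.9% for replicate 1, 88.9% for replicate 2 and 77.8% for both, within 100 bp. Over all 3870 nuclear thresholded peaks these shares were 84.3%, 92.5% and 78.1%.

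Many of these peaks lay between divergent genes. Of the 9 member peaks, 5 (55.6%) were also in the window of another protein-coding gene, beside 442 of the 1645 thresholded peaks in any protein-coding window (26.9%). Noncoding genes, such as cel-mir-5549 at the rfc-4 summit, were not counted for nearness. Among protein-coding genes, the nearest 5′ end was a member's for 7 of the 9 peaks. The exceptions were cdc-6 and cye-1, whose peaks were nearer to acin-1 and pqn-21, and the shared peak was nearest to orc-5. Among the members, 15 of 39 (38.5%) had a divergent upstream neighbour within 1000 bp, beside 17.5% of all protein-coding genes. Of those 15, which include orc-5 and cyb-1 with their shared peak, 6 (40.0%) had a thresholded summit, beside 21.2% of all genes so placed. Of the 8 members with an upstream neighbour on the same strand within 1000 bp, 2 had one (25.0%, beside 8.1%), as did 2 of the 16 with no neighbour so near (12.5%, beside 7.5% of all genes so placed). The part of this spacing in the members' count was not tested.

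**Figure D5:**
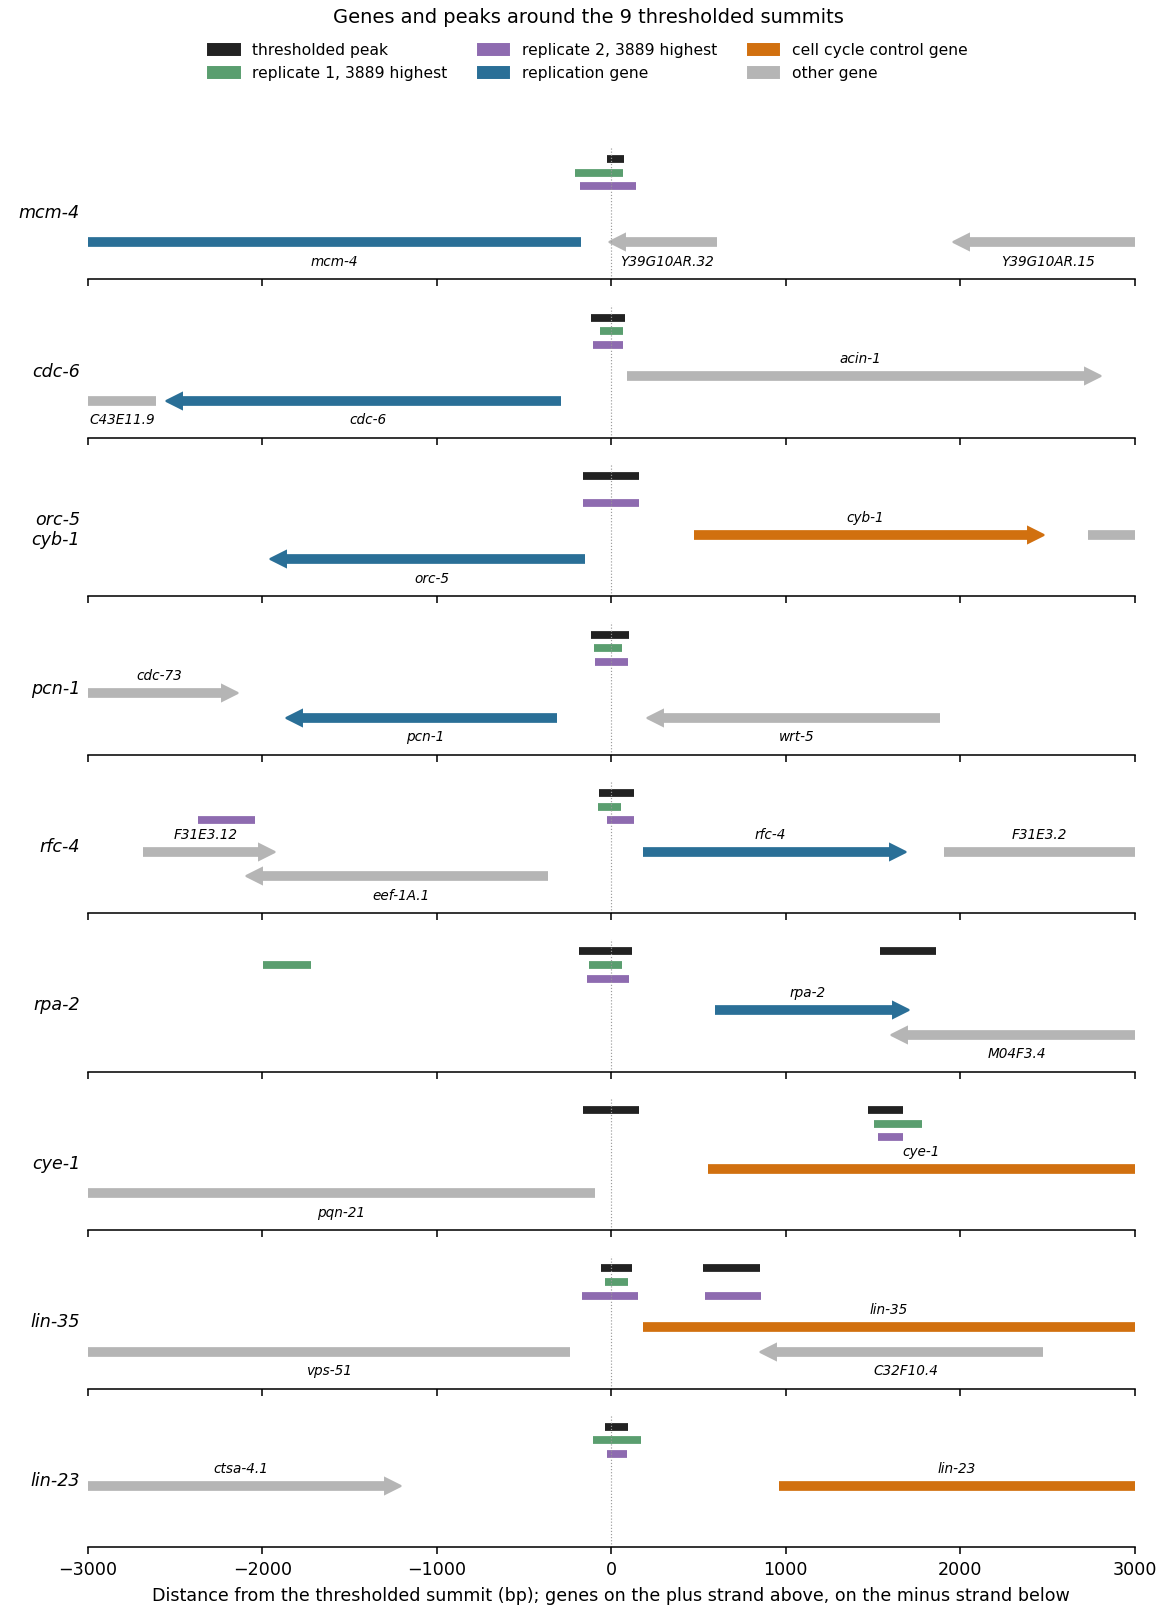
Genes (bars, arrowheads where the 3′ end is in view) and peaks of the thresholded list and of each replicate's 3889 highest around the 9 member summits, by distance from the thresholded summit (x axis, bp). The cdc-6, orc-5 with cyb-1, rfc-4, cye-1 and lin-35 summits lie between divergent genes, replicate 1 has no bar at orc-5 with cyb-1, and at cye-1 both replicates have one at the intron peak and none at the promoter peak.

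By chromosome, a thresholded summit was found for 5 of the 8 members on I, beside 11.7% of all protein-coding genes there, and for 3 of the 5 on IV, beside 8.53%, where the 3 genes rest on 2 peaks. On II it was 1 of 8 (beside 9.68%) and on III 1 of 11 (beside 14.7%, the highest share of the 6 chromosomes over all genes). None of the 6 members on V (beside 7.45%), and not cdk-4, the 1 member on X (beside 10.9%), had one. These counts are small and were not tested.

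Some members without a promoter summit had thresholded peaks farther upstream, in a search that stopped 5000 bp from the 5′ end. The share of all protein-coding genes with such peaks was not computed, so how common they are is not known here. At rnr-2, 5 peaks lay 1393 to 3819 bp upstream, with signals of 61.58 to 146.3, and all but the farthest fell in coding exons or the 5′ UTR of the neighbouring genes C03C10.7 and rei-1. At orc-2, peaks lay 1178 bp upstream (signal 179.8, rank 963) and 4985 bp upstream (501.8, rank 136). At cki-1 they lay 2033 and 2998 bp upstream, with 65.0 and 94.04. Single peaks lay 1262 bp upstream of mcm-7 in an exon of figl-1, 1813 bp upstream of fzr-1 and 1924 bp upstream of rfc-3. The nearer orc-2 peak had a higher signal than the promoter peaks of lin-23, mcm-4, orc-5 with cyb-1 and cye-1. These peaks cannot be tied to a gene by position alone.

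The same windows were examined at 99 other genes of the pathway, of which 32 (32.3%) had a thresholded summit, on 34 peaks. Over all protein-coding genes the share was 10.1%, and neither the total nor the lists were tested against it. The counts were 10 of 27 other replication genes (37.0%), 5 of 9 genes of the DRM complex, E2F and related synMuv factors (55.6%), 12 of 33 mitosis genes (36.4%), 2 of 12 other cyclin and kinase genes (16.7%) and 3 of 18 other ubiquitin ligase genes (16.7%). Of the 34 peaks, 21 (61.8%) lay in the window of more than 1 protein-coding gene, beside 26.9% of thresholded peaks in any protein-coding window.

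The DRM complex joins LIN-35 and the E2F and DP proteins to the MuvB core on cell cycle promoters. Its genes lin-54, lin-53 and lin-9 had pooled signals of 918.8 (rank 53), 449.8 (rank 186) and 348.9 (rank 294). For lin-54, the DNA-binding subunit, the replicate signals were 348.2 (rank 55) and 522.8 (rank 54), but the summit lay 361 bp upstream of it and only 32 bp upstream of the ribosomal protein gene rpl-12. For lin-9 the summit lay 176 bp upstream in no other protein-coding gene's window, with 126.1 (rank 308) and 207.5 (rank 269). The lin-53 summit, at 248 bp upstream, was nearer to nra-2, and its replicate signals were 214.6 (rank 118) and 234.8 (rank 217). The subunit gene lin-52 and the synMuv gene lin-36 had weaker thresholded peaks. The E2F genes efl-2 and efl-3 of the same list had no thresholded summit in the window, nor did lin-37 and lin-15B.

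Among the other replication genes the highest were ctf-4 (369.3, rank 271), tim-1 (342.0, rank 309) and top-2 (243.7, rank 591), which encode a replisome protein, a Timeless family protein and a type II topoisomerase. All 3 of these summits lay nearer to another gene's 5′ end, for ctf-4 the translation elongation factor gene eef-1G at 34 bp. The tim-1 summit also overlaps the annotated small nuclear RNA gene sls-2.8. The other replication genes with a thresholded summit were pole-1, pola-1, pri-2, psf-1, psf-3, dna-2 and tyms-1. They include genes for polymerase, primase and GINS subunits. The thresholded pri-2 peak (68.11), singled out after its values were seen, had no replicate summit near it: the nearest lay 1401 bp away in replicate 1 and 6153 bp away in replicate 2.

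Among mitosis genes the highest were ify-1, the securin gene (388.8, rank 246), and the centriole assembly genes sas-4 (231.2, rank 651) and sas-5 (214.0, rank 728). The ify-1 summit lay 208 bp upstream of it and 229 bp upstream of the ribosomal protein gene rpl-22. The sas-4 summit lay 760 bp upstream of sas-4 but only 88 bp upstream of F10E9.11, which has the nearer 5′ end. The sas-5 summit, 70 bp upstream of sas-5, was also in the window of piit-1. Other mitosis genes with a thresholded summit were bir-1, mdf-1, mdf-2, ndc-80, scc-1, mix-1, cyk-4, zyg-1 and tbg-1. Replicate 2 had no relaxed summit within 100 bp of the mdf-2 or ndc-80 peak. The scc-1, cyk-4 and tbg-1 summits lay nearer to the 5′ ends of rpn-5, pdr-1 and rpac-19. Among the remaining lists, cdk-7 had 194.8 (rank 847) and cdc-14 had 75.84 (rank 3028), and the ubiquitin ligase genes sel-10, cul-4 and gfi-3 had 226.0, 179.9 and 178.8.

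Short motifs were counted within 75 bp of each summit, on both strands, as letters only. The E2F-type word TTCGCGC was in 3 of the 9 member windows (33.3%), those of mcm-4, orc-5 with cyb-1, and cye-1. It was in 14.7% of the 34 windows of the other pathway peaks, 3.1% of all nuclear thresholded peaks and 0.941% of windows of the same length in all promoters. Those 3 member peaks were the ones with the lowest pooled signals. Each promoter was read only at the middle of its window from 1000 bp upstream to 200 bp downstream. The promoter shares are therefore not matched to the summits by distance from the 5′ end. The other E2F-type words, TTTCCCGC and TTTGGCGC, were in none of the 9. The CHR-type TTTGAA was in 3 (mcm-4, rfc-4 and cye-1) and TTCGAA in 2 (mcm-4 and cdc-6), beside 23.7% and 8.6% of all nuclear thresholded peaks and 41.4% and 9.09% of all promoters.

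Words of other classes were counted in the same way. GAGAGA was in 2 of 9 (rfc-4 and cye-1, 22.2%), beside 26.8% of all nuclear thresholded peaks and 8.25% of promoters. The word CTGCGTCTC was in 2 of 9 (cye-1 and lin-23), beside 6.74% and 0.846%. The nuclear receptor core AGGTCA, its variant AGTTCA and the Sp1-type CCGCCC were in none of the 9, beside 5.71%, 7.91% and 7.26% of all nuclear thresholded peaks. The windows of pcn-1, rpa-2 and lin-35, which include the pair with the highest signals, held no motif of the set. TTCGAA is its own reverse complement, and matches of different words could overlap. Median G+C content was 43.0% in the member windows, 43.0% over all nuclear thresholded peaks and 33.8% over promoters. A match is a description of the letters, and 9 windows are too few for a share to be read closely.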

How the data were processed

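Per the file records and labels, the authors deposited peak lists on the ce11 build for each replicate, for the pooled replicates and after an irreproducible discovery rate threshold. The peak signal is the authors' own value. The aligner and caller used and the tool versions are, like the read depth and the threshold, not given in the sources used here. Summits (start plus offset) were placed on the Ensembl release 115 annotation of WBcel235, where 99.89% of annotated start codons read ATG in the RefSeq genome used. Mitochondrial peaks (19) and genes were left out. A gene had a peak when a summit lay within 1000 bp upstream to 200 bp downstream of its 5′ end. Computation used python 3.11.15, pandas 2.3.3 and numpy 2.4.6, and scripts were tested on simulated data. The members and lists were chosen with earlier results of these data known. By the naming rule, each member was named with its thresholded peak or its highest relaxed pooled peak, and other pathway genes with a thresholded summit were named, at most 3 per list with values, apart from pri-2, added after its values were seen. The genes lin-37, lin-15B, efl-2 and efl-3 were also named, as those of the DRM and E2F list without a thresholded summit. The names pold-1, sld-3 and smc-1 of the other pathway lists were not found in the annotation and were not used. The 10 alternatives listed at the outset changed the window, the assignment, the peak list or the replicates, and leaving out peaks near tRNA genes was added after the data were seen.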

Additional observations from a re-analysis of the deposited data

How the results depend on the processing

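The count of members with a thresholded summit (10) stayed between 7 and 15 under 9 of 11 alternatives. It was 6 with the 1944 peaks of highest signal, which lost mcm-4, orc-5, cyb-1 and cye-1 (all genes: 5.85%). With the relaxed pooled list it was 26 (all genes: 34.8%). It was 7 with the window from 500 bp upstream to 100 bp downstream, which lost rpa-2, cye-1 and lin-23 (all genes: 7.69%), and 15 with the window from 2000 bp upstream to 500 bp downstream, which added mcm-7, orc-2, rfc-3, rnr-2 and fzr-1 (all genes: 13.7%). Assigning each summit to its nearest 5′ end gave 8 (20.5%), without cdc-6 and cyb-1, while the share of all genes rose to 10.8%. With 1 replicate left out in turn the count was 9 to 10, although only 7 of the 10 reached without replicate 2 were among the original genes. For replication genes (6 of 22) the wide window gave 10 (45.5%) and the relaxed pooled list 16 (72.7%), and leaving out a replicate gave 6 (27.3%). For cell cycle control genes (4 of 17) the narrow window gave 2 (11.8%, all genes: 7.69%). The 1944 highest peaks also gave 2 (11.8%, all genes: 5.85%). The relaxed pooled list gave 10 control genes (58.8%), and leaving out a replicate gave 3 to 4 (17.6% to 23.5%). For the other pathway genes (32 of 99) the relaxed pooled list gave 66 (66.7%), and leaving out a replicate gave 26 to 33 (26.3% to 33.3%). Without the peaks closer than 500 bp to tRNA genes, an alternative chosen after seeing the data, the members stayed at 10. The wide and relaxed settings admit more peaks by construction. Depth is unknown, so no peak's absence can be given a limit.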
